A study of Homo sapiens with 8 samples.

Results

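The comparison set ISL1 knockout (KO) cells against wild-type (WT) cells and covered all genes, with weight on pathways, gene families and transcription factors rather than on islet hormones. Both groups came from H1, an established line of human embryonic stem cells, that had been differentiated in culture toward pancreatic islets. Both received the control vector, which codes for blue fluorescent protein (BFP), on day 11, and RNA was taken on day 18. All libraries with these genotypes and this vector were members: 3 of ISL1 KO BFP (replicates 1, 2 and 3) and 2 of WT BFP (replicates 1 and 3), 5 of the 21 libraries in the series. The other libraries were PAX6 KO and PDX1 KO cells and cells given an ISL1 vector. The labels give the cell type as ESC and the model as pancreatic islet, and the series describes the replicates as biological. The labels used here do not say whether the knockout line was 1 clone, so the loss of ISL1 and any other property of that line cannot be told apart. In bulk RNA, fewer cells of a type and less RNA per cell cannot be told apart either.

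ISL1 belongs to the LIM-homeodomain transcription factors, which carry LIM domains for binding partner proteins and a homeodomain that reads DNA sites with a TAAT core. LIM domains bind the LDB cofactors, and LIM-only (LMO) proteins bind the same cofactors without binding DNA. ISL1 is known for the maturation of islet endocrine cells, and also for the development of motor neurons and of heart progenitors.

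Gene counts summed to 54335522 and 40959445 in WT BFP replicates 1 and 3 and to 60473980, 61075520 and 66818593 in ISL1 KO BFP replicates 1 to 3. Within a group, the correlation of log2 levels across genes was at least 0.981. On the first principal component of the 11 control vector libraries (31.6% of the variance) WT had −99.9 and −84.6. The ISL1, PAX6 and PDX1 KO libraries had −15.3 to 59.8. On the second (21.6%) the ISL1 KO libraries had 57.5 to 61.7 and the other libraries −47.9 to 17.5. Levels are library-scaled counts (CPM, read counts relative to the TMM-scaled library total), and fold changes are log2 values ± SE from edgeR's quasi-likelihood test, fitted on the 11 control vector libraries of all 4 genotypes. A gene was called at a Benjamini-Hochberg adjusted p under 0.05. Fold changes moved with the GC content of the transcripts. The median log2 fold change rose from −0.22 in the decile of genes with the lowest GC content to 0.31 in the highest, over 12912 genes with a mean log2 CPM above 2, and its part in the calls was not tested beyond a fit with a GC offset. In that fit 4209 of the 5544 calls it could test remained called, and of the calls of at least 2-fold 2373 of 2547 remained called. With all 21 libraries in the fit, which includes libraries that stand apart from their groups, the common dispersion was 0.114 in place of 0.0378. Far fewer genes were called in that fit, so its counts are given beside the results. A fit of 19 libraries, without the 2 that stand apart, called 3060 genes higher and 3481 lower. It kept the calls of 540 of 545 named genes.

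**Figure D1:**
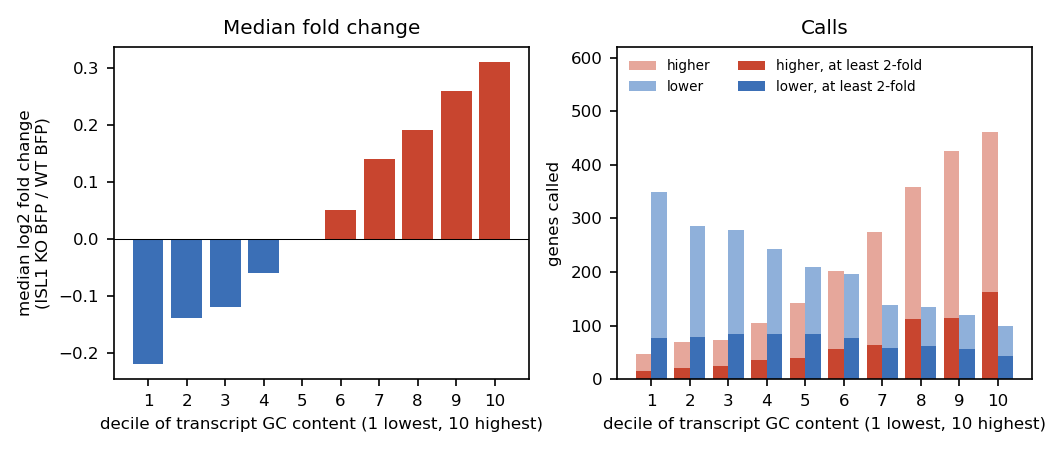
Left, the median log2 fold change of ISL1 KO BFP over WT BFP in 10 deciles of transcript GC content. Right, the number of genes called in each decile, with calls of at least 2-fold in darker bars. In the lowest decile 47 genes were called higher and 350 lower, and in the highest 462 higher and 99 lower.

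ISL1 itself (ENSG00000016082, GRCh38 chromosome 5, 51383391 to 51394738) had 285 and 482 CPM in the WT libraries and 65.6, 66.7 and 72.8 CPM in the ISL1 KO libraries. The groups did not overlap, and the fall was −2.49 ± 0.23 (adjusted p = 2.86e-05). ISL1 was also below every PAX6 KO and PDX1 KO library, where it had 121.2 to 214.5 CPM. The islet label was checked with genes common to islet endocrine cells. CHGA, a granin of secretory granules, had 17509 and 21231 CPM in WT and 21597 to 30243 CPM in ISL1 KO (log2 difference 0.34 ± 0.21, adjusted p = 0.245). NEUROD1, a transcription factor of endocrine cells, had 720 and 1035 CPM in WT and 639 to 835 CPM in ISL1 KO (−0.27 ± 0.21, adjusted p = 0.369). Endocrine markers were thus present in all 5 libraries. They were not all unchanged: of 15 such genes 3 were called higher (20%) and 4 lower (26.7%), with a median of −0.25. With all 21 libraries in the fit, 0 were higher and 1 lower. Their summed level was 23700 and 29220 CPM in WT and 26668 to 36265 CPM in ISL1 KO.

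Of 21200 genes tested, 2864 were higher in ISL1 KO, which is 13.5% of them, and 2877 were lower, which is 13.6%. With the added condition of at least a 2-fold change, 1233 were higher (5.82%) and 1465 lower (6.91%). The median log2 fold change of all genes was 0.05. Of the 15929 protein-coding genes tested, 2449 were higher and 2596 lower, larger shares than those of all genes. The levels of the groups did not overlap in 11786 genes (55.6%). WT BFP had 2 libraries, so every fit without either of them rested on 1 WT library. Leaving out 1 library lowered the counts most for the WT libraries: 1438 higher and 1927 lower without WT replicate 1, and 1128 and 1798 without WT replicate 3. With all 21 libraries in the fit, 455 were higher and 994 lower. Scaling by library size alone in place of TMM called 4590 higher and 2096 lower and moved the median of all genes to 0.21. The shares of all genes called are the background for the counts below, in which a member is called by the adjusted p alone unless a 2-fold change is named.

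**Figure D2:**
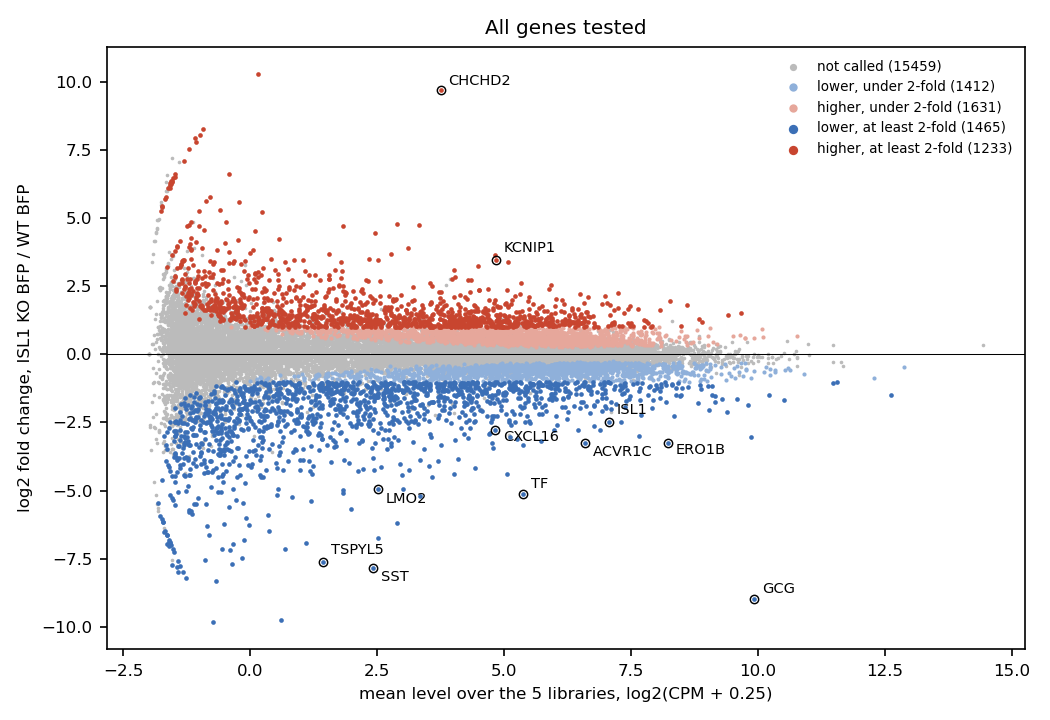
Each point is 1 of the 21200 genes tested, with its mean level over the 5 libraries in log2(CPM + 0.25) on the x axis and the log2 fold change of ISL1 KO BFP over WT BFP on the y axis. Circled genes are named in the text, with CHCHD2 (9.71) the highest of them and GCG (−8.97), SST (−7.83) and TSPYL5 (−7.62) the lowest.

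Among genes with a mean log2 CPM of 2 or more, the largest rise was that of CHCHD2, a small protein of the mitochondrial intermembrane space (ENSG00000106153, chromosome 7, 56101569 to 56106576). Its level was 0.139 and 0.191 CPM in WT and 143, 129 and 139 CPM in ISL1 KO. The groups differed by 9.71 ± 0.26 (adjusted p = 1.96e-09), and the PAX6 KO and PDX1 KO libraries held 0 to 0.0197 CPM, so CHCHD2 RNA was seen at this height in the ISL1 KO line alone among the 4 genotypes. TSPYL5, a nucleosome assembly family gene, showed the reverse. It had 39.6 and 41.4 CPM in WT, 0.295, 0.0811 and 0.232 CPM in ISL1 KO, and 43.1 to 94.6 CPM in the other knockouts (−7.62 ± 0.26, adjusted p = 1.6e-08). A pair of zinc finger genes went the same way as TSPYL5: ZNF585A had 14.2 and 15.9 CPM in WT, 0.0436 to 0.162 CPM in ISL1 KO and 13.5 to 21.3 CPM in the other knockouts (−7.13 ± 0.28, adjusted p = 6.48e-08). ZNF596 had 3.25 and 3.42 CPM in WT, 0.0145 to 0.0324 CPM in ISL1 KO and 1.87 to 2.57 CPM in the other knockouts. The neighbour of ZNF585A on chromosome 19, ZNF585B, rose by 3.09 ± 0.33, from 0.873 and 0.656 CPM to 6.48, 6.79 and 6.42 CPM. ZNF585A and ZNF585B are close copies of each other, and counting can split reads between them, so their separate values are uncertain. CHCHD2, TSPYL5, ZNF585A, ZNF585B and ZNF596 kept their calls in every alternative fit. TSPYL5, ZNF585A and ZNF596 were singled out after their values were seen. Whether these differences follow the loss of ISL1 or belong to the edited line cannot be told apart. The labels used here do not say whether that line was 1 clone.

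The start regions of CHCHD2 and ZNF585A are shown because RNA from these genes was close to present in one genotype and absent in the other, and the letters CG, at which DNA can be methylated, are in capitals. Both are the 250 bases before the RefSeq start in GRCh38.p14, written 5′ to 3′ on the gene's strand. They were chosen after their values were seen.
CHCHD2 chr7:56106477-56106726, minus strand: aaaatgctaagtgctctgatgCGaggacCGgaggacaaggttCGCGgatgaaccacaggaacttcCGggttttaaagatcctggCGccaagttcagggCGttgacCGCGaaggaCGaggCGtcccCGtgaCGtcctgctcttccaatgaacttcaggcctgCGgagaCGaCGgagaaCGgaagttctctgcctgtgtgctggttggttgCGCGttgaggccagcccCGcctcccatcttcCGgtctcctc
ZNF585A chr19:37172696-37172945, minus strand: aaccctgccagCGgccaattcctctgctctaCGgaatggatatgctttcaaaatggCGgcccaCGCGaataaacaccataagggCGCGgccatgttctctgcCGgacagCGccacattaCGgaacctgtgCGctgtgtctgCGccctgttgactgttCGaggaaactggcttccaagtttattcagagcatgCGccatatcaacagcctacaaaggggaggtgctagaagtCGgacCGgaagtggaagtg
The stretch of CHCHD2 holds 21 CG and that of ZNF585A 16, against a median of 11 over 35116 RefSeq promoters of this length. These files hold no methylation values.

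TSPYL5 (97273474 to 97277964) and ZNF596 (232137 to 264703) lie on chromosome 8. AC079062.1 was the only gene with at least 5 CPM in each WT library and under 0.1 CPM in each ISL1 KO library, and no gene met the reverse rule. It is a noncoding transcript on chromosome 18 (73151241 to 73264480). It had 18.9 and 21.5 CPM in WT and 4 counts in all over the 3 ISL1 KO libraries (0.0492, 0 and 0.0145 CPM). The PAX6 KO and PDX1 KO libraries, at 0 to 0.0936 CPM, were as low, so the transcript set the WT libraries apart from all 3 knockout lines.

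**Figure D3:**
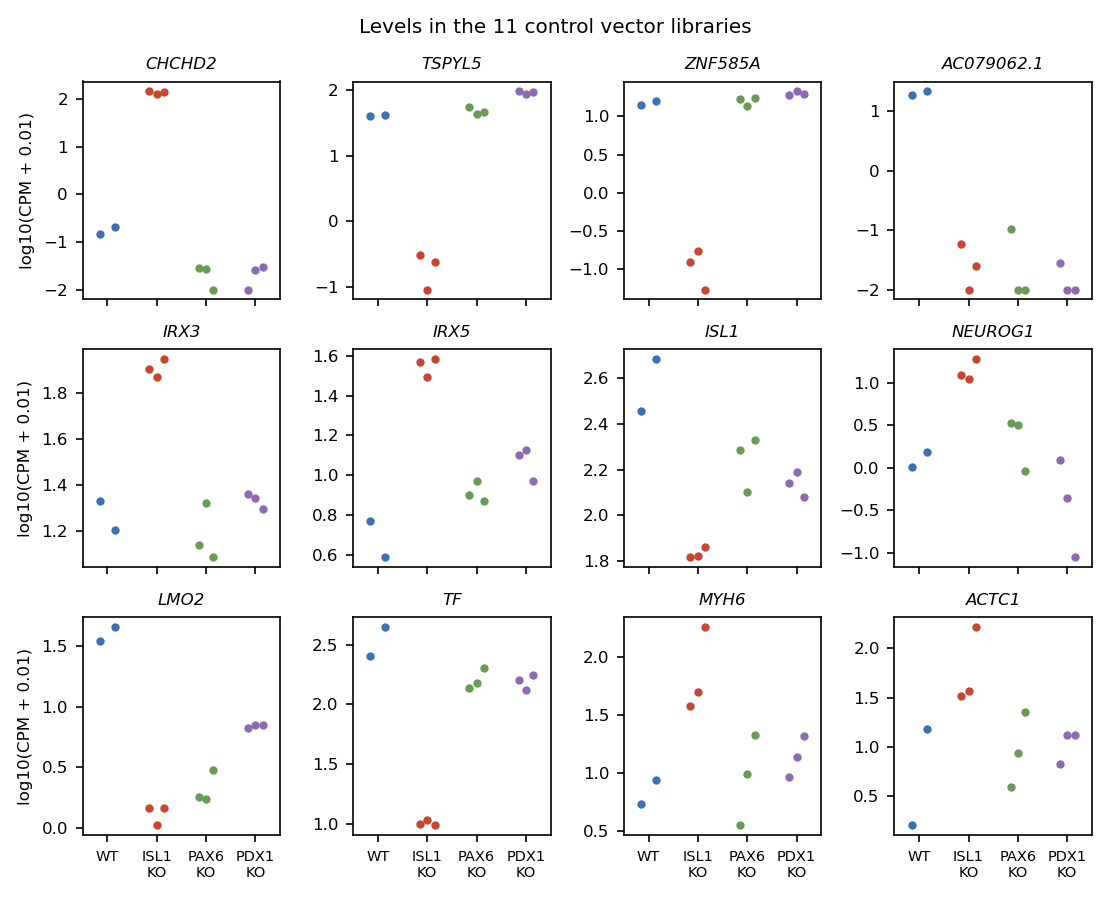
Levels of 12 genes in the 11 control vector libraries, as log10(CPM + 0.01), with 1 point per library and columns for WT (2 libraries) and ISL1, PAX6 and PDX1 KO (3 each). In CHCHD2, TSPYL5, ZNF585A, IRX3, IRX5, ISL1, NEUROG1, LMO2, TF, MYH6 and ACTC1 the ISL1 KO libraries lie outside the range of the 8 others, while in AC079062.1 the WT libraries stand apart.

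Among the 12 largest rises with separate groups and a mean level of 2 or more in log2 CPM were also NGFR, KCNIP1, GRIK3, PROKR1 and B3GAT1. NGFR, the low-affinity neurotrophin receptor, had 1.07 and 0.465 CPM in WT and 14.6, 15.2 and 22 CPM in ISL1 KO (4.45 ± 0.81, adjusted p = 0.00211). KCNIP1, a calcium-binding partner of potassium channels, had 5.87 and 7.63 CPM in WT and 67.2, 63 and 95.6 CPM in ISL1 KO (3.48 ± 0.30, adjusted p = 1.67e-05). GRIK3, a kainate receptor subunit, rose by 3.11 ± 0.44, from 3.61 and 5.03 CPM to 33.9 to 42.1 CPM. Separate groups were a condition for naming these rises, so the separation is not a further result. PROKR1, a prokineticin receptor, rose by 3.91 ± 0.43, and B3GAT1, which makes the HNK-1 carbohydrate of neural adhesion proteins, by 3.69 ± 0.28. Side by side with the other knockouts, which share the same WT libraries as controls, KCNIP1 stood at 9.54 to 17.3 CPM in PAX6 KO and 106 to 150 CPM in PDX1 KO, and NGFR at 0.0987 to 2.41 CPM over both.

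At the same minimum level, the largest falls outside GCG, SST and PYY were in G6PC2, LOXL4, TF, LMO2, ANXA1, DUOXA2, PLPPR5, AREG and GPR119. TF, which codes for the iron carrier transferrin, had 253 and 444 CPM in WT and 9.86, 10.7 and 9.71 CPM in ISL1 KO (−5.11 ± 0.24, adjusted p = 2.3e-07). The PAX6 KO and PDX1 KO libraries held 132 to 200 CPM of TF, so the ISL1 KO libraries were the lowest of the 11. GPR119, a lipid receptor of islet and gut endocrine cells, had 185 and 231 CPM in WT and 7.20, 15.1 and 7.77 CPM in ISL1 KO (−4.38 ± 0.28, adjusted p = 2.52e-06). G6PC2, the glucose-6-phosphatase subunit of islets, had 81 and 94.1 CPM in WT and 0.968, 1.15 and 1.42 CPM in ISL1 KO (−6.21 ± 0.23, adjusted p = 4.04e-07). ANXA1, an annexin that binds membranes with calcium, fell by 4.93 ± 0.83 on the log2 scale and DUOXA2, the maturation factor of a hydrogen peroxide-producing oxidase, by 4.52 ± 0.31. All of these genes kept their calls in every alternative. GCG (−8.97), SST (−7.83) and PYY (−6.76) fell further.

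Of 39 genes of other peptide hormones 18 were lower and 4 higher. CRH, corticotropin-releasing hormone, had 22 and 24.3 CPM in WT and 1.1, 1.13 and 1.32 CPM in ISL1 KO (−4.28 ± 0.29, adjusted p = 3.02e-06). PTHLH, parathyroid hormone-like hormone, had 45 and 76.2 CPM in WT and 202, 197 and 270 CPM in ISL1 KO (1.88 ± 0.31, adjusted p = 0.00117), so hormone genes moved both ways. Of 36 receptors for nutrients and hormones 8 were higher and 11 lower. FFAR1, a fatty acid receptor of islets, had 70 and 78.1 CPM in WT and 13.4, 17 and 15.4 CPM in ISL1 KO (−2.28 ± 0.28, adjusted p = 0.000179). CASR, the calcium-sensing receptor, fell by 2.44 ± 0.30, and NPY1R, a receptor for neuropeptide Y, rose from 23.2 and 28.2 CPM to 81.2, 95.2 and 86.4 CPM (1.77 ± 0.19, adjusted p = 7.32e-05). These named genes kept their calls in every alternative. With all 21 libraries the hormone genes called numbered 1 higher and 6 lower and the receptors 5 and 5, and without ISL1 KO replicate 3 the hormone genes called higher were 2. Receptors called lower numbered 7 without ISL1 KO replicate 1 or WT replicate 3.

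Among 511 genes of transcription factor families, 105 were higher (20.5%) and 99 lower (19.4%), against 13.5% and 13.6% of all genes, and 68 and 65 by at least 2-fold. The shares of protein-coding genes called lay between those of the factor genes and of all genes. The median of the factor genes was 0.01. Leaving out WT replicate 1 gave 62 higher and 62 lower, leaving out WT replicate 3 gave 64 and 76, and all 21 libraries gave 40 and 41.

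LIM genes moved in both directions. Of 8 LIM-homeodomain genes tested, LMX1A, LMX1B and LHX2 were higher and ISL1, LHX1 and LHX4 lower. LMX1A, known from dopamine neurons and serotonin-producing enterochromaffin cells, had 82.8 and 88.4 CPM in WT and 268, 287 and 321 CPM in ISL1 KO (1.77 ± 0.16, adjusted p = 1.89e-05). LHX1 had 5.26 and 4.81 CPM in WT and 1.26, 0.730 and 1.02 CPM in ISL1 KO (−2.33 ± 0.39, adjusted p = 0.00137). LHX2 was at most 1.18 CPM in any library, and its call was lost without ISL1 KO replicate 3 or either WT library. LHX4 lost its call without WT replicate 1, and with all 21 libraries 1 was called higher and LMX1B and LHX2 were not called. Of 17 LIM cofactor and LIM-only genes 3 were higher and 5 lower. LMO2, a LIM-only bridging protein of blood and vessel cells, had 35.2 and 45.8 CPM in WT and 1.44, 1.04 and 1.44 CPM in ISL1 KO (−4.95 ± 0.26, adjusted p = 5.08e-07). LDB2, a LIM-domain binding cofactor, had 14.6 and 25.7 CPM in WT and 2.80, 3.15 and 5.31 CPM in ISL1 KO (−2.42 ± 0.32, adjusted p = 0.000289). SSBP3, a protein that binds the LDB cofactors, rose by 0.81 ± 0.10. The 3 higher were 1 without either WT library or with all 21 libraries. LMO2 was also low in the other knockouts, at 1.73 to 7.13 CPM, whereas LDB2 was at 9.71 to 17.1 CPM there.

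Outside the LIM class, the neighbouring genes IRX5 and IRX3, homeobox genes used in neural tube and heart patterning, rose together. IRX5 had 5.89 and 3.85 CPM in WT and 37.1, 31.2 and 38.3 CPM in ISL1 KO (2.86 ± 0.23, adjusted p = 1.11e-05). IRX3 had 21.2 and 15.9 CPM in WT and 80.2, 73.8 and 88.4 CPM in ISL1 KO (2.12 ± 0.22, adjusted p = 6.53e-05). In PAX6 KO and PDX1 KO, IRX3 stood at 12.1 to 22.9 CPM and IRX5 at 7.41 to 13.3 CPM, below all ISL1 KO libraries. DLX5, a homeobox gene of forebrain and bone, rose by 3.49 ± 0.62, and its neighbour DLX6 by 2.93 ± 0.52. NKX6-1, a regulator of beta cells and of ventral neural tube progenitors, had 41.6 and 72.6 CPM in WT and 191, 189 and 238 CPM in ISL1 KO (1.85 ± 0.26, adjusted p = 0.000415), and MNX1, shared by beta cells and motor neurons, rose by 1.82 ± 0.23. PHOX2A, a factor of autonomic neurons, had 6.11 and 6.12 CPM in WT and 28.3, 26.1 and 13.6 CPM in ISL1 KO (1.89 ± 0.50, adjusted p = 0.0157), a call that was lost without either WT library and with all 21 libraries.

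**Figure D4:**
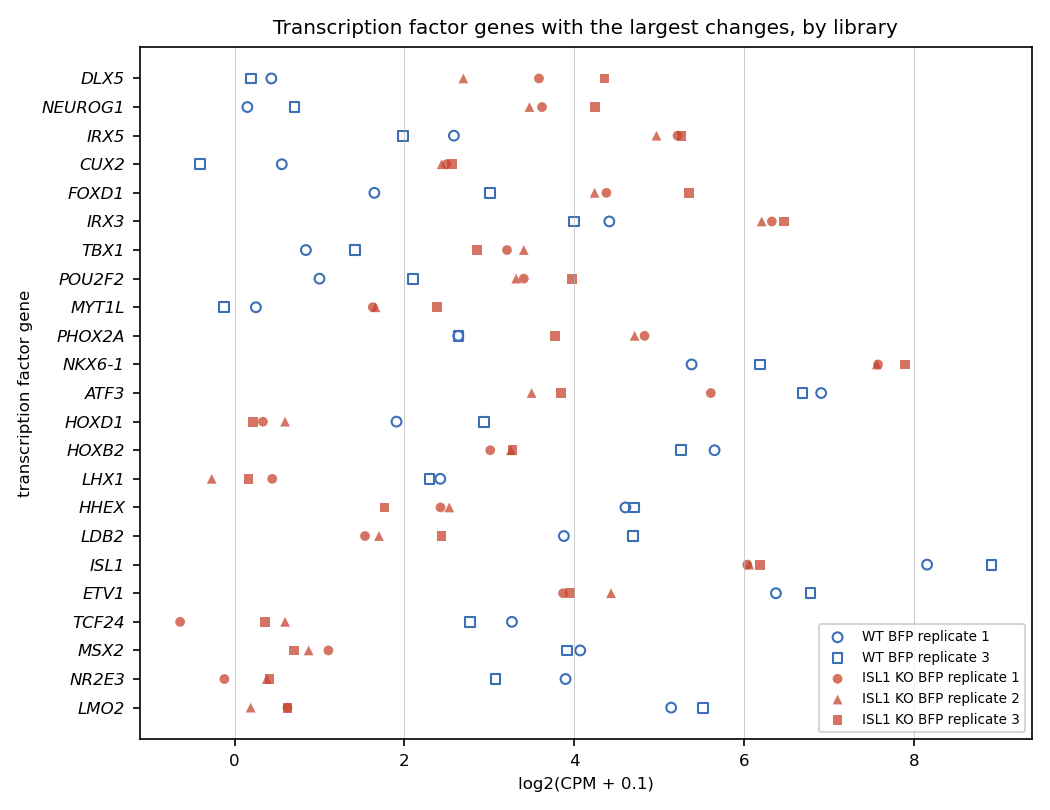
Levels of 23 transcription factor genes among those with the largest rises and falls in log2(CPM + 0.1), with open blue symbols for the 2 WT BFP libraries and filled red symbols for the 3 ISL1 KO BFP libraries. Genes are ordered by log2 fold change, from DLX5 (3.49) at the top to LMO2 (−4.95) at the bottom, and in each of them the groups do not overlap.

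Homeobox genes that fell outside the LIM class included MSX2, HHEX, HOXD1 and HOXB2. MSX2, a target gene and effector of BMP signalling, had 16.7 and 15 CPM in WT and 2.05, 1.73 and 1.52 CPM in ISL1 KO (−3.16 ± 0.51, adjusted p = 0.000972). HHEX, a factor of foregut and delta cells, had 24.2 and 25.9 CPM in WT and 5.27, 5.67 and 3.30 CPM in ISL1 KO (−2.40 ± 0.29, adjusted p = 0.000139). The HOX genes lay out position along the body axis. Of 20 tested, 4 were higher, among them HOXA2, HOXA3 and HOXC4, and 6 lower, namely HOXB2, HOXB3, HOXB5, HOXB6, HOXB7 and HOXD1. HOXB2 had 50.2 and 38.2 CPM in WT and 7.96, 9.44 and 9.57 CPM in ISL1 KO (−2.30 ± 0.20, adjusted p = 1.8e-05). HOXA2 rose from 4.2 and 5.08 CPM to 12.1, 10.3 and 8.26 CPM (1.14 ± 0.24, adjusted p = 0.00469). The median of the 20 was −2.04. Without WT replicate 1 the HOX genes called lower numbered 3, with HOXB5 and, among those higher, HOXA2 not called. Without WT replicate 3 those called higher numbered 2, with HOXA3 and HOXC4 not called, and all 21 libraries gave 2 higher and 3 lower. HOXC4 was also not called without ISL1 KO replicate 3, and HOXA3 without ISL1 KO replicate 1.

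The promoters of the transcription factor genes with the 3 largest rises and 3 largest falls that had an entry in the RefSeq table were searched for TAAT, the core that homeodomains read, on both strands (ATTA on the other), with overlapping matches counted. The entry had to match the symbol, and 14 of 23 named factor genes had one. Of these 6 promoters the 4 with a match are shown, as the 250 bases before the start in GRCh38.p14, 5′ to 3′ on the gene's strand, with TAAT and ATTA in capitals.
NEUROG1 chr5:135535965-135536214, minus strand: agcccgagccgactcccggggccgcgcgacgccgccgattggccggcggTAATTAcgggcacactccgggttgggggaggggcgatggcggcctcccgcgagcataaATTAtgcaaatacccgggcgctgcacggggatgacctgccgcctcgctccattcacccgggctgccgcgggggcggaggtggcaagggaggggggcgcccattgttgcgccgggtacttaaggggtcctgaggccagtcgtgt
FOXD1 chr5:73448778-73449027, minus strand: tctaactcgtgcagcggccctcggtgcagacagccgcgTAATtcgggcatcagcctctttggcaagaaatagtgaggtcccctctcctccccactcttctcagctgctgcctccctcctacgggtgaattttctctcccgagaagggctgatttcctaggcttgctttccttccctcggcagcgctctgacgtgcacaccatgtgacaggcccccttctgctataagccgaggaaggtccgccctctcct
NR2E3 chr15:71810304-71810553, plus strand: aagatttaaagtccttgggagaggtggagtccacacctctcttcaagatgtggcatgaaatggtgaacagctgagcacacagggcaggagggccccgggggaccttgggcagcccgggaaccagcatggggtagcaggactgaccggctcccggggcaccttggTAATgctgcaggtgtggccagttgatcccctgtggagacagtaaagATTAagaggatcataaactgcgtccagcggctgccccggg
MSX2 chr5:174724332-174724581, plus strand: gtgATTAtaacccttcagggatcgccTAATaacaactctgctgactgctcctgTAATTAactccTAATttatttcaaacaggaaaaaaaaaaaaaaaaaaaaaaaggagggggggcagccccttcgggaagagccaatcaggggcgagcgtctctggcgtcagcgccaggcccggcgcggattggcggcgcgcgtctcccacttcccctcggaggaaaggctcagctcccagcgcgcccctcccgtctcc
NEUROG1, which rose, held 3 matches and MSX2, which fell, held 5, and each held 1 TAATTA, in which 2 of those matches overlap. FOXD1 held 1 match and NR2E3 held 2, while CUX2, which rose, and ETV1, which fell, held none. Over all 35116 promoters of this length 47.4% held at least 1 match, 16.8% held 3 or more and 4.35% held TAATTA. The longer form CTAATG, found in 5.57% of all promoters, was in none of the 6. Matches therefore stood in promoters of genes that rose and of genes that fell, and a match is a description of letters, not a binding site.

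Among basic helix-loop-helix (bHLH) genes, which drive or block differentiation as pairs, 11 of 56 were higher and 9 lower. These shares were 19.6% and 16.1%, beside 13.5% and 13.6% of all genes, and with the GC offset 7 were higher and 11 lower. NEUROG1, a starter of sensory neuron fate, had 1.01 and 1.53 CPM in WT and 12.2, 11 and 18.8 CPM in ISL1 KO (3.47 ± 0.76, adjusted p = 0.00592), a call lost without WT replicate 1. NEUROG3, which starts the endocrine program of the pancreas, had 107 and 162 CPM in WT and 287, 300 and 364 CPM in ISL1 KO (1.23 ± 0.28, adjusted p = 0.0071), a call also lost without WT replicate 1. NEUROD4 rose by 1.72 ± 0.27 and kept its call in every alternative. The 4 ID genes, which code for partners that keep bHLH factors off DNA and are targets of BMP signalling, were all lower. ID1 had 117.01 and 89.7 CPM in WT and 34.7, 21.9 and 30.8 CPM in ISL1 KO (−1.83 ± 0.30, adjusted p = 0.00119). ID3 had 344 and 296 CPM in WT and 104, 69.7 and 94.8 CPM in ISL1 KO (−1.83 ± 0.32, adjusted p = 0.00173). The differences for ID2 and ID4 were −1.04 ± 0.20 and −1.14 ± 0.15, and in all 4 genes the groups did not overlap. ID1, ID2 and ID3 were singled out after their values were seen, and with all 21 libraries ID4 alone was called. They were no higher in the other knockouts, with ID1 at 12.1 to 33.8 CPM and ID3 at 29.4 to 77.3 CPM. MITF, a factor of pigment cells and lysosomes, fell by 1.89 ± 0.16, and BHLHA15, a factor of secretory cells, by 1.81 ± 0.21. The bHLH genes called higher numbered 5 without WT replicate 1, 7 without WT replicate 3 and 7 with the GC offset, and with all 21 libraries 4 were higher and 4 lower.

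Of 17 SOX genes 9 were higher and none lower, with a median of 0.64. SOX4, which acts in endocrine progenitors, had 291 and 285 CPM in WT and 534, 394 and 445 CPM in ISL1 KO (0.67 ± 0.13, adjusted p = 0.00254). SOX1, a mark of early neural cells, had 0.357 and 0.492 CPM in WT and 2.15, 1.65 and 2.90 CPM in ISL1 KO (2.41 ± 0.33, adjusted p = 0.00035), and SOX13 rose by 1.48 ± 0.27. The count was 7 to 9 when 1 library was left out, 9 with the GC offset and 5 with all 21 libraries, where SOX13 was not called. FOX genes were even, with 5 of 33 higher and 5 lower, or 2 and 4 with all 21 libraries. FOXD1 rose by 2.30 ± 0.45, and FOXO1, a target of insulin signalling that turns on genes of fasting, had 133 and 147 CPM in WT and 47.6, 46.7 and 42.6 CPM in ISL1 KO (−1.61 ± 0.12, adjusted p = 6.13e-06). Of 9 NKX genes 4 were higher and 1 lower. The 4 were 2 without WT replicate 1 and 1 with all 21 libraries, and the call of the lower one was lost without ISL1 KO replicate 2 or 3 or either WT library. ETV1, an ETS factor, had 82.9 and 110 CPM in WT and 14.5, 21.5 and 15.4 CPM in ISL1 KO (−2.50 ± 0.22, adjusted p = 1.92e-05). NR2E3, a nuclear receptor of photoreceptors, fell by 3.41 ± 0.41, and PLAGL1, an imprinted zinc finger gene, had 88 and 120 CPM in WT and 16, 16.6 and 18.6 CPM in ISL1 KO (−2.61 ± 0.22, adjusted p = 1.35e-05).

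Further factor families held single large movers. TBX1, a T-box gene of the pharynx and heart outflow tract, had 1.69 and 2.57 CPM in WT and 9.14, 10.5 and 7.12 CPM in ISL1 KO (2.07 ± 0.28, adjusted p = 0.000341). CUX2, a cut-homeobox gene of cortical neurons, rose by 2.43 ± 0.37, and MYT1L, a neuronal zinc finger gene, by 1.95 ± 0.35. POU2F2, a POU factor of B cells, rose by 2.0 ± 0.34 but was not called with all 21 libraries. The TALE homeobox genes MEIS1 and PBX3, whose proteins bind DNA together with HOX proteins, both fell. MEIS1 had 64.7 and 48.4 CPM in WT and 24.9, 28.9 and 25.3 CPM in ISL1 KO (−1.10 ± 0.16, adjusted p = 0.00043), and PBX3 differed by −1.04 ± 0.15. Of 45 AP-1, ATF and CEBP genes 17 were lower and 3 higher. CREB5, of this class, had 12.5 and 10.5 CPM in WT and 4.64, 3.19 and 3.4 CPM in ISL1 KO (−1.62 ± 0.25, adjusted p = 0.000835). DDIT3, a factor of the stress response, fell by 1.01 ± 0.18, a call lost with all 21 libraries. The 17 were 10 without WT replicate 3 and 4 with all 21 libraries, and the 3 higher were 1 without WT replicate 1 or with all 21 libraries.

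Of 108 genes of chromatin regulators 39 were called higher and 4 lower, at a median of 0.29. SMARCA4, the motor subunit of a chromatin remodelling complex, had 204 and 175 CPM in WT and 350, 306 and 329 CPM in ISL1 KO (0.79 ± 0.13, adjusted p = 0.00132), and CBX2, a Polycomb subunit, rose by 1.47 ± 0.26. KDM6A, a demethylase of histone H3, fell by 1.02 ± 0.20. The 4 lower were 2 or fewer when a library other than ISL1 KO replicate 2 was left out. The count of 39 was 20 without WT replicate 1, 10 without WT replicate 3, 26 with the GC offset and 1 with all 21 libraries, where SMARCA4, CBX2 and KDM6A were not called. Among 483 numbered ZNF genes 53 were higher and 31 lower, shares below those of all genes. These were 21 and 18 without WT replicate 1, 14 and 14 without WT replicate 3 and 8 and 6 with all 21 libraries. The 53 were 34 and the 31 were 21 without ISL1 KO replicate 3.

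**Figure D5:**
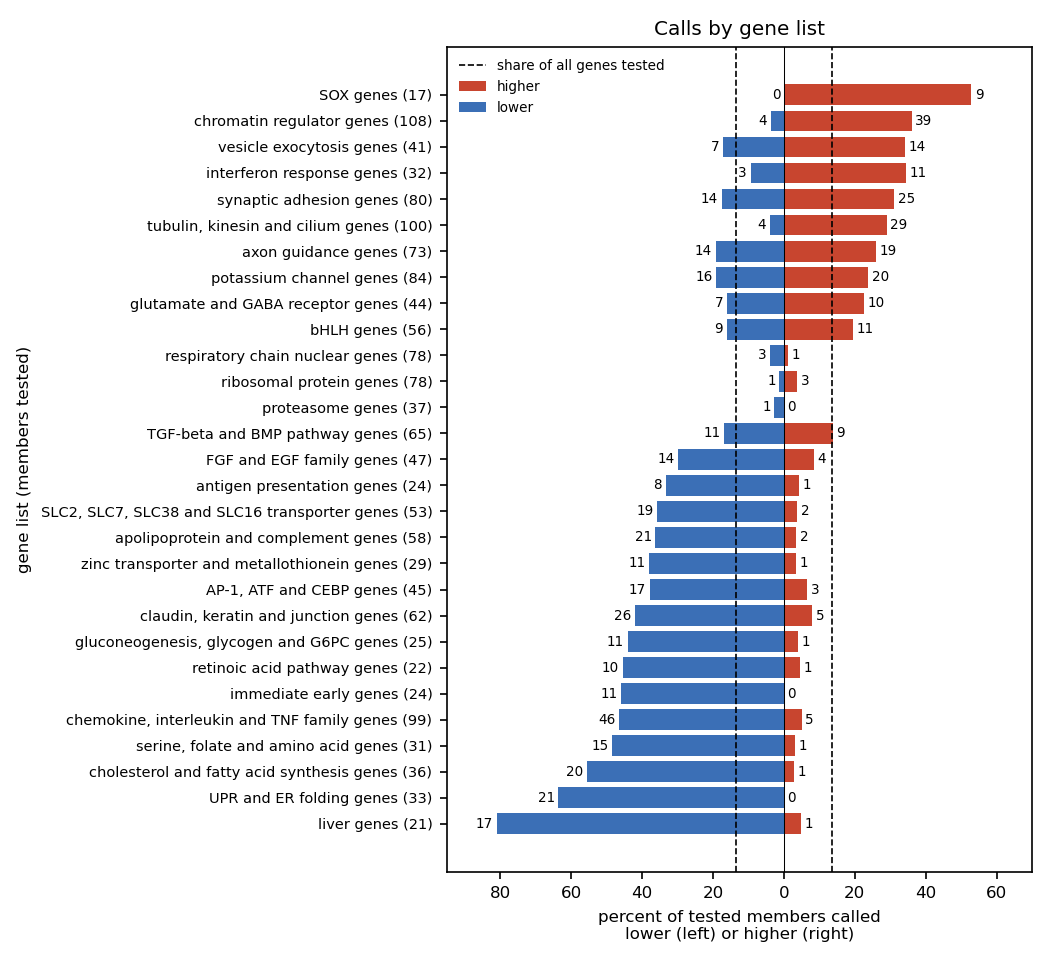
Share of the tested members of 29 gene lists called higher (red, right) or lower (blue, left) in ISL1 KO BFP, with the number called at the end of each bar. Dashed lines mark the shares of all genes tested, 13.5% higher and 13.6% lower. Of the lists shown, SOX genes (9 of 17) have the highest share called higher, and liver genes (17 of 21) the highest share called lower.

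Genes of the endoplasmic reticulum (ER), where secreted proteins fold, were lower. Of 33 genes of ER folding and the unfolded protein response 21 were lower and none higher, with a median of −0.52. ERO1B, an oxidase that makes disulfide bonds and is rich in islets, had 1010.8 and 1315.4 CPM in WT and 102.1, 148.9 and 115.7 CPM in ISL1 KO (−3.25 ± 0.21, adjusted p = 2.67e-06). HSPA5, the main ER chaperone, had 2518 and 2677 CPM in WT and 1594, 1654 and 1477 CPM in ISL1 KO (−0.72 ± 0.09, adjusted p = 0.000253). DNAJB9, an ER co-chaperone, had 228.8 and 309.7 CPM in WT and 104.5, 112.4 and 109.5 CPM in ISL1 KO (−1.31 ± 0.18, adjusted p = 0.000373). In all 3 genes the groups were separate, and ERO1B showed the largest of these differences. Over PAX6 KO and PDX1 KO, ERO1B stood at 92.1 to 165.2 CPM and DNAJB9 at 95.9 to 142.9 CPM, so both were below WT there too. The count of 21 was 14 to 20 when 1 library was left out, 23 with the GC offset and 8 with all 21 libraries, and 5 members were lower by at least 2-fold.

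Prohormone processing and granule genes were less uniform, with 1 of 17 higher and 3 lower. CPE, which trims prohormones, had 1045 and 1324 CPM in WT and 310, 354 and 387 CPM in ISL1 KO (−1.76 ± 0.19, adjusted p = 7.25e-05). SCG5, a chaperone of a prohormone convertase, had 1026 and 1470 CPM in WT and 271, 280 and 356 CPM in ISL1 KO (−2.05 ± 0.24, adjusted p = 0.000112), though not called with all 21 libraries. SCG2 was called lower but lost the call without any 1 of the ISL1 KO libraries or WT replicate 1. SLC30A8, which loads zinc into insulin granules, had 348 and 406 CPM in WT and 44.5, 56.6 and 63.7 CPM in ISL1 KO (−2.78 ± 0.20, adjusted p = 4.73e-06). Of its list of 29 zinc transporters and metallothioneins 11 were lower and 1 higher, but 5 or 6 were lower without ISL1 KO replicate 1 or 3 or WT replicate 3, 3 without WT replicate 1 and 2 with all 21 libraries. Of 41 genes of vesicle exocytosis 14 were higher and 7 lower. SYT13, a synaptotagmin of endocrine cells, rose from 46.7 and 51.1 CPM to 131, 142 and 142 CPM (1.5 ± 0.15, adjusted p = 3.47e-05). RAB27B, a small GTPase that docks granules, fell from 27.4 and 26 CPM to 3.58, 2.79 and 2.58 CPM (−3.16 ± 0.32, adjusted p = 4.8e-05). The exocytosis genes called higher numbered 8 without ISL1 KO replicate 3, 3 without WT replicate 1, 7 without WT replicate 3, 9 with the GC offset and 3 with all 21 libraries. Those called lower numbered 4 without ISL1 KO replicate 1 and 3 without ISL1 KO replicate 3, without WT replicate 1 or with all 21 libraries.

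Genes typical of liver, which shares its foregut origin with the pancreas, were lower as a list: 17 of 21 were lower and 1 higher, with a median of −1.18. TTR, a carrier of thyroid hormone and retinol that islets also make, had 3491 and 3058 CPM in WT and 420, 379 and 397 CPM in ISL1 KO (−3.04 ± 0.17, adjusted p = 1.17e-06). VTN, vitronectin, had 474.9 and 575.8 CPM in WT and 120.9, 107.5 and 106.6 CPM in ISL1 KO (−2.23 ± 0.15, adjusted p = 2.57e-06), and SERPINA1, alpha-1 antitrypsin, fell by 1.66 ± 0.19. AFP, the fetal liver protein, had 3925 and 4996 CPM in WT and 2400, 2318 and 1690 CPM in ISL1 KO (−1.06 ± 0.19, adjusted p = 0.00197). The summed level of the 21 genes was 27553 and 30270 CPM in WT, 10380 to 14625 CPM in ISL1 KO and 7461 to 11726 CPM in the other knockouts, so the WT libraries were the highest of the 11. The count was 14 to 16 when 1 library was left out and 8 with all 21 libraries. Of 58 apolipoprotein, complement and serpin genes 21 were lower and 2 higher. The 21 were 13 without WT replicate 3 and 9 with all 21 libraries, and the count of higher genes was 0 without either WT library.

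Genes of sterol and fatty acid synthesis were also lower, with 20 of 36 lower, 1 higher and a median of −0.46. MSMO1, a sterol oxidase, had 484 and 644 CPM in WT and 222, 242 and 254 CPM in ISL1 KO (−1.24 ± 0.19, adjusted p = 0.000707). INSIG1, a sensor that holds back sterol synthesis, fell by 1.22 ± 0.21 and ACSS2, which makes acetyl-CoA from acetate, by 1.32 ± 0.13. FASN, fatty acid synthase, was the member called higher (1.15 ± 0.32, adjusted p = 0.0205), a call lost without either WT library and with the GC offset. The count of 20 was 10 without WT replicate 3, 24 with the GC offset and 5 with all 21 libraries, and 3 members were lower by at least 2-fold. Of 31 genes of serine, folate and amino acid metabolism 15 were lower and 1 higher. CTH, which makes cysteine, fell by 1.96 ± 0.20 and PSAT1, of serine synthesis, by 1.03 ± 0.14. Of 25 genes of gluconeogenesis and glycogen 11 were lower, among them PCK2, the mitochondrial PEP carboxykinase, at 100 and 106 CPM in WT and 35.4, 34.2 and 31.9 CPM in ISL1 KO (−1.61 ± 0.12, adjusted p = 6.13e-06). Of 53 glucose, amino acid and monocarboxylate carriers 19 were lower, among them SLC16A4 (−3.38 ± 0.33), SLC3A1 (−2.43 ± 0.24) and the glucose carrier SLC2A3 (−2.04 ± 0.19). The gluconeogenesis count was 6 without WT replicate 1, and with all 21 libraries the counts of these 3 lists were 6, 5 and 10. Few genes of the respiratory chain (1 higher and 3 lower of 78), ribosome (3 and 1 of 78) and proteasome (none and 1 of 37) were called, shares below those of all genes. In each fit that left out 1 library, at most 3 genes of each of these lists were called in each direction.

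The retinoic acid pathway turns retinol into a signal for nuclear receptors and is used in pancreas patterning. Of 22 of its genes 10 were lower and 1 higher. ALDH1A1, a retinaldehyde dehydrogenase, had 807 and 1233 CPM in WT and 344, 380 and 373 CPM in ISL1 KO (−1.48 ± 0.18, adjusted p = 0.000139). RBP4, the plasma retinol carrier, had 244 and 323 CPM in WT and 53, 42.1 and 28 CPM in ISL1 KO (−2.79 ± 0.36, adjusted p = 0.000241). ALDH1A3, a second such enzyme, fell by 3.99 ± 0.44 and STRA6, the retinol uptake receptor, by 1.79 ± 0.34, while RXRB, a nuclear receptor, rose by 1.10 ± 0.23. The genes named were called members picked by the smallest adjusted p, so they do not stand for all steps of the pathway. All 5 kept their calls in every alternative. The count of 10 was 6 without ISL1 KO replicate 1 or either WT library and 5 with all 21 libraries.

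Growth factor pathways held rises and falls among ligands, receptors and inhibitors. Of 65 genes of the TGF-beta and BMP pathway 9 were higher and 11 lower, close to the background. ACVR1C, a type I receptor for activin-class ligands, had 289 and 476 CPM in WT and 32.6, 45.4 and 40.9 CPM in ISL1 KO (−3.27 ± 0.25, adjusted p = 5.9e-06). BMP2, a ligand, had 182 and 220 CPM in WT and 47.3, 27.4 and 23.7 CPM in ISL1 KO (−2.61 ± 0.25, adjusted p = 3.01e-05). SMAD7, an inhibitor of the pathway that its signals turn on, had 20.3 and 11.3 CPM in WT and 5.33, 4.85 and 3.86 CPM in ISL1 KO (−1.76 ± 0.31, adjusted p = 0.00156), and the decoy receptor gene BAMBI fell by 1.65 ± 0.24. BMP7, another ligand, rose from 18 and 15.9 CPM to 38.4, 41.1 and 40.4 CPM (1.24 ± 0.18, adjusted p = 0.0005). The counts were 4 higher and 7 lower without WT replicate 3 and 1 and 5 with all 21 libraries, where BAMBI was not called, and those higher numbered 5 without ISL1 KO replicate 3 or WT replicate 1.

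Of 47 FGF and EGF family genes 14 were lower and 4 higher, and 11 were lower by at least 2-fold. AREG, an EGF receptor ligand, had 106 and 96.3 CPM in WT and 7.4, 3.81 and 3.27 CPM in ISL1 KO (−4.39 ± 0.44, adjusted p = 4.22e-05). FGF19, the gut hormone that restrains bile acid synthesis, fell by 2.69 ± 0.28, and KLB, the coreceptor it needs, by 1.48 ± 0.18. The 14 were 12 to 14 when 1 library was left out and 10 with all 21 libraries. The number called higher was 0 without ISL1 KO replicate 3 or with all 21 libraries, 1 without WT replicate 1 and 2 with the GC offset. GNAS, which codes for the stimulatory G protein alpha subunit, had 2305 and 3637 CPM in WT and 866, 911 and 1018 CPM in ISL1 KO (−1.67 ± 0.17, adjusted p = 5.38e-05). AKAP7, an anchor of protein kinase A, fell from 84.9 and 91.5 CPM to 13.4, 11.9 and 9.24 CPM (−2.93 ± 0.19, adjusted p = 2.54e-06). Of the whole cAMP list of 52 genes, 9 were higher and 12 lower. Those higher numbered 3 and those lower 7 without WT replicate 3, and with all 21 libraries 1 and 4. IGF-binding proteins split, with IGFBP7 (−2.93 ± 0.29) and IGFBP4 (−2.26 ± 0.31) lower and IGFBP2 (0.66 ± 0.11) higher, the last not called with all 21 libraries.

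Among 24 immediate early genes, which respond to stimuli within minutes to hours, 11 were lower and none higher. ATF3 had 120 and 103 CPM in WT and 48.7, 11.2 and 14.3 CPM in ISL1 KO (−2.17 ± 0.50, adjusted p = 0.00766), and EGR2 fell by 1.43 ± 0.20, but ATF3 was not called with all 21 libraries. FOS and JUN, the founding members, were not called (−0.67 ± 0.28 and −0.60 ± 0.27, adjusted p = 0.101 and 0.122). The count of immediate early genes was 6 without WT replicate 1, 16 without ISL1 KO replicate 1, which held the highest ATF3 level of its group, and 2 with all 21 libraries.

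Of 99 genes of the chemokine, interleukin and TNF families 46 were lower, 40 of them by at least 2-fold, and 5 were higher, with a median of −0.85. CXCL16, a membrane-bound chemokine, had 92.4 and 87.3 CPM in WT and 15.6, 13.5 and 9.92 CPM in ISL1 KO (−2.79 ± 0.18, adjusted p = 2.67e-06). LIFR, the receptor for leukemia inhibitory factor, had 354 and 297 CPM in WT and 57.4, 59.6 and 42.2 CPM in ISL1 KO (−2.62 ± 0.22, adjusted p = 1.31e-05). TNFRSF12A and TNFRSF21, receptors of the TNF family, fell by 2.71 ± 0.19 and 1.92 ± 0.15. The count of 46 was 31 to 41 when 1 library was left out and 21 with all 21 libraries. The 5 higher were 3 without WT replicate 3 and none with all 21 libraries. Antigen presentation genes were lower in 8 of 24, or 2 with all 21 libraries, HLA-B among them at 337 and 339 CPM in WT and 140, 120 and 95.6 CPM in ISL1 KO (−1.51 ± 0.21, adjusted p = 0.000345). HLA genes are close copies of each other, so counting can move reads between them.

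Interferon response genes, in contrast, were higher in 11 of 32 and lower in 3, with a median of 0.51. IFI6, an interferon-induced protein, had 115.9 and 157.1 CPM in WT and 504.2, 439.5 and 676.7 CPM in ISL1 KO (1.98 ± 0.22, adjusted p = 9.56e-05). IFI6 stood at 138.9 to 190.4 CPM in PAX6 KO and at 521.8 to 710.6 CPM in PDX1 KO. OAS1, a sensor of double-stranded RNA, had 8.99 and 12 CPM in WT and 29, 27 and 35.7 CPM in ISL1 KO (1.54 ± 0.19, adjusted p = 0.000175), and the transcription factors IRF9 and IRF7 rose by 1.21 ± 0.12 and 1.15 ± 0.12. IFIT2, TRIM22 and IFIH1 were the members that fell (−2.17 ± 0.43, −1.67 ± 0.42 and −0.66 ± 0.11). The count of 11 was 8 to 11 when 1 library was left out, 11 with the GC offset and 5 with all 21 libraries. The 3 lower were 5 without ISL1 KO replicate 2, while TRIM22 was not called without WT replicate 3 and, like IFIH1, not with all 21 libraries.

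Of 62 claudin, keratin and junction genes 26 were lower and 5 higher. CLDN7, a claudin of tight junctions, had 564 and 634 CPM in WT and 198, 176 and 165 CPM in ISL1 KO (−1.74 ± 0.17, adjusted p = 3.47e-05). CDH1, E-cadherin, had 670 and 652 CPM in WT and 205, 281 and 224 CPM in ISL1 KO (−1.48 ± 0.14, adjusted p = 2.51e-05), a call lost with all 21 libraries. ITGB1, the integrin beta chain shared by most matrix receptors, had 730 and 873 CPM in WT and 322, 389 and 284 CPM in ISL1 KO (−1.27 ± 0.15, adjusted p = 0.000133), and ITGA1, a collagen-binding alpha chain, fell by 2.42 ± 0.23. The junction genes called lower numbered 15 without WT replicate 1 and 8 with all 21 libraries, those called higher 2 and 0 in the same fits and 3 without WT replicate 3, ISL1 KO replicate 1 or ISL1 KO replicate 3.

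Adhesion by cadherins and matrix genes was mixed. Of 20 cadherin genes 8 were lower, all by at least 2-fold, and 5 higher. CDH18, a neural cadherin, had 22.9 and 24 CPM in WT and 4.18, 6.68 and 4.98 CPM in ISL1 KO (−2.15 ± 0.21, adjusted p = 3.27e-05), and CDH17, of gut and liver epithelium, fell by 2.28 ± 0.36, not called with all 21 libraries. The 5 higher were 3 without ISL1 KO replicates 1 or 2 or WT replicate 3, 1 without WT replicate 1 and none with all 21 libraries, and the 8 lower were then 3. Of 40 collagen genes 12 were higher and 8 lower. COL9A2, a collagen that coats other fibrils, had 60.9 and 56.5 CPM in WT and 25.2, 20.2 and 21.1 CPM in ISL1 KO (−1.40 ± 0.14, adjusted p = 4.84e-05), and COL5A2, a fibril-forming collagen, rose from 91.5 and 83.2 CPM to 212, 280 and 341 CPM (1.67 ± 0.24, adjusted p = 0.000544), a call lost with all 21 libraries. The collagen counts ranged from 5 to 10 higher and 2 to 7 lower when 1 library was left out, lowest without WT replicate 1, and were 2 and 3 with all 21 libraries. Glycan synthesis genes moved both ways as well, with 13 of 56 higher and 15 lower. Beside B3GAT1, GALNT16, which starts O-linked sugar chains, rose by 1.78 ± 0.19, while FUT8, which adds core fucose, had 64.8 and 80.4 CPM in WT and 32.7, 30 and 29.3 CPM in ISL1 KO (−1.24 ± 0.14, adjusted p = 9.56e-05). Those higher were 6 without WT replicate 3, and with all 21 libraries 4 were higher and 8 lower.

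Of 80 genes of synaptic adhesion 25 were higher and 14 lower, and by at least 2-fold 19 were higher and 9 lower. The median of the list was −0.00. NXPH4, a neurexin ligand, had 6.35 and 6.4 CPM in WT and 43.6, 38.4 and 46.5 CPM in ISL1 KO (2.75 ± 0.18, adjusted p = 2.52e-06). CBLN1, a secreted synapse organiser, had 18 and 24.9 CPM in WT and 108, 101 and 167 CPM in ISL1 KO (2.55 ± 0.25, adjusted p = 4.18e-05). IGSF11, an adhesion protein that binds to itself, was among those that fell (−2.43 ± 0.26). Among 73 axon guidance genes, 19 were called higher and 14 lower. The netrin receptor genes UNC5D and UNC5C moved in opposite directions, UNC5D from 13.6 and 11.4 CPM to 56.1, 68.1 and 66.8 CPM (2.35 ± 0.22, adjusted p = 3.32e-05) and UNC5C from 13.6 and 9.89 CPM to 2.26, 2.50 and 2.11 CPM (−2.36 ± 0.30, adjusted p = 0.000236). Synaptic adhesion genes called higher numbered 16 without WT replicate 1 and 7 with all 21 libraries, and those lower 9 and 8 without WT replicate 3 and with all 21. Guidance genes called higher numbered 12 without WT replicate 3, those lower 8 without ISL1 KO replicate 1 or either WT library and 9 without ISL1 KO replicate 3, and with all 21 libraries 5 and 3.

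Of 84 potassium channel genes 20 were higher and 16 lower, nearly all by at least 2-fold (16 and 15). KCNJ3, a G protein-gated channel subunit, rose from 11.1 and 16.5 CPM to 45.3, 38.8 and 45.6 CPM (1.65 ± 0.20, adjusted p = 0.000178). KCNJ8, a pore of ATP-sensitive channels, fell from 16.8 and 23.2 CPM to 2.33, 2.33 and 1.66 CPM (−3.25 ± 0.28, adjusted p = 1.79e-05), and KCNK16, an islet channel of the K2P family, from 289.45 and 298.93 CPM to 115.12, 123.18 and 120.97 CPM (−1.30 ± 0.11, adjusted p = 1.82e-05). KCNK16 stood at 120.34 to 149.37 CPM in PAX6 KO and at 247.79 to 295.86 CPM in PDX1 KO. Among glutamate and GABA receptors 10 of 44 were higher and 7 lower. GRIA1 rose by 2.76 ± 0.21 and GRIK4 by 2.76 ± 0.29, while GRIA3, another AMPA receptor subunit, fell by 1.64 ± 0.18. The potassium channel genes called higher numbered 11 without either WT library, those lower 8 without WT replicate 1, and with all 21 libraries 9 and 7. Receptor genes called lower numbered 4 without ISL1 KO replicate 1 or 3, and with all 21 libraries 5 were higher and 3 lower.

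Tubulin, kinesin and cilium genes were higher in 29 of 100 and lower in 4. TUBB3, the tubulin of neurons and endocrine cells, had 112.6 and 126.8 CPM in WT and 241.1, 214.8 and 257.8 CPM in ISL1 KO (0.99 ± 0.14, adjusted p = 0.000489). TUBB3 stood at 233.7 to 313.0 CPM in PAX6 KO and at 215.9 to 257.8 CPM in PDX1 KO. DNAH8, an axonemal dynein, fell from 34.5 and 28.2 CPM to 1.49, 2.33 and 1.48 CPM (−4.15 ± 0.29, adjusted p = 3.6e-06). The count of 29 was 13 and 12 without WT replicate 1 and 3, 23 with the GC offset and 3 with all 21 libraries. The 4 lower were 3 in each left-out fit and 2 with all 21 libraries. Neurofilament genes, which code for the intermediate filaments of neurons, moved both ways, with NEFM at 247 and 216 CPM in WT and 74.8, 75.7 and 108 CPM in ISL1 KO (−1.42 ± 0.19, adjusted p = 0.000351) and NEFL at −1.10 ± 0.19, NEFM not being called with all 21 libraries. NEFH, the heavy subunit, rose from 8.57 and 7.95 CPM to 17.8, 14.8 and 13.6 CPM (0.90 ± 0.19, adjusted p = 0.00568), a call lost without WT replicate 3. Neuron markers as a list were thus mixed, with 7 of 21 higher and 5 lower, and their summed level was 965 and 1213 CPM in WT and 984 to 1280 CPM in ISL1 KO. Without WT replicate 1 those higher numbered 4, without WT replicate 3 those lower 2, without ISL1 KO replicate 1 or 2 those lower 3, as with the GC offset, and with all 21 libraries 1.

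Markers of serotonin-producing enterochromaffin cells were higher in 8 of 13 and lower in 2. TPH1, the first enzyme of serotonin synthesis, had 29.5 and 56.9 CPM in WT and 145, 181 and 236 CPM in ISL1 KO (2.12 ± 0.30, adjusted p = 0.000442). SLC18A1, which loads amines into vesicles, had 32.8 and 55.5 CPM in WT and 139, 147 and 203 CPM in ISL1 KO (1.89 ± 0.29, adjusted p = 0.000747), and DDC, the decarboxylase of the same path, rose by 1.20 ± 0.15. Reuptake and breakdown genes went the other way. SLC6A4, the serotonin transporter, had 25.2 and 15.7 CPM in WT and 1.59, 1.85 and 2.24 CPM in ISL1 KO (−3.43 ± 0.37, adjusted p = 6.79e-05). The other lower member was MAOB, whose call was lost without ISL1 KO replicate 3 or either WT library, with library size alone and with all 21 libraries. MAOA, which breaks serotonin down and was counted in a separate list of amine genes, fell by 1.86 ± 0.19. The summed level of the 13 genes was 1459 and 1748 CPM in WT, 2956 to 3793 CPM in ISL1 KO and 1765 to 4803 CPM in the other knockouts. With all 21 libraries 5 were higher, and the lower count was 1 without ISL1 KO replicate 3 or WT replicate 3 and with all 21 libraries.

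Markers of other cells moved with the groups in part. Of 17 mesenchyme markers none was higher and TAGLN and POSTN were lower, and their summed level ranged over 2358 to 3430 CPM in WT and 2638 to 3697 CPM in ISL1 KO. WT replicate 1 held more of the collagen gene COL3A1 than WT replicate 3, at 758 against 114 CPM. TAGLN fell by 2.57 ± 0.39, whereas POSTN lost its call without WT replicate 1 or any ISL1 KO library. Of 17 duct and progenitor markers 6 were lower and none higher (2994 and 3060 CPM summed in WT, 2626 to 2748 CPM in ISL1 KO), and of 11 acinar markers 6 were lower and none higher (167.5 and 201.3 against 112.1 to 143.9 CPM). Of 25 proliferation markers 6 were higher and none lower, among them MCM5, of the replication helicase and not called without WT replicate 3 or with all 21 libraries, at 42.4 and 26.8 CPM in WT and 85.2, 75.8 and 60.6 CPM in ISL1 KO (1.09 ± 0.27, adjusted p = 0.0109). Their summed level was 1298 and 873 CPM in WT and 2016, 1945 and 1402 CPM in ISL1 KO. Of 10 endothelium markers 4 were lower and 2 higher, with a median of −1.22 (148 and 146 CPM summed in WT, 107 CPM in each ISL1 KO library and 80 to 95.7 CPM in the other knockouts). EGFL7, a secreted vessel factor, had 88.3 and 91.1 CPM in WT and 35.9, 33.3 and 38.1 CPM in ISL1 KO (−1.33 ± 0.12, adjusted p = 1.93e-05). The fall of the summed level was that of EGFL7, and the rest of the sum was not lower in ISL1 KO. CLDN5, a claudin of vessels, rose by 0.88 ± 0.14. Neither EGFL7 nor CLDN5 was called with all 21 libraries. The defining marker PECAM1 stood at 0.377 and 0.437 CPM in WT and at 0, 0 and 0.0581 CPM in ISL1 KO. The 4 lower were 2 without ISL1 KO replicate 1 or either WT library and 1 with all 21 libraries, and the 2 higher were 1 without WT replicate 3 or with all 21 libraries. The proliferation count was 2 and 3 without ISL1 KO replicates 1 and 2, none without WT replicate 3 or with all 21 libraries, and 12 with library size alone. POU5F1, the defining pluripotency factor, was at 0.0436 to 0.278 CPM in the 5 libraries. The part of these markers in the results was not tested.

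Heart muscle genes formed a further group that moved, in a list of 20 made after their values were seen. Of these 12 were higher and 2 lower, with a median of 2.58. MYH6, the atrial myosin heavy chain, had 5.41 and 8.72 CPM in WT and 37.8, 49.8 and 181 CPM in ISL1 KO (3.67 ± 0.83, adjusted p = 0.00712). ACTC1, cardiac actin, had 1.59 and 15.1 CPM in WT and 32.7, 37 and 165 CPM in ISL1 KO (3.25 ± 1.03, adjusted p = 0.0356), and NPPA, the atrial natriuretic peptide, 0.0595 and 4.32 CPM in WT and 21.3, 28 and 118.3 CPM in ISL1 KO (4.74 ± 1.54, adjusted p = 0.0398). ISL1 KO replicate 3 was the highest of the 5 libraries in 17 of the 20 genes. MYL3 and NPPB fell instead (−1.75 ± 0.48 and −3.12 ± 0.54). The summed level was 96.4 and 152 CPM in WT, 205, 251 and 832 CPM in ISL1 KO and 45.2 to 142 CPM in the other knockouts. Without ISL1 KO replicate 3, 5 of the 20 were higher, with MYH6 at 2.64 (adjusted p = 0.0167) and ACTC1 and NPPA not called (2.08 and 3.54, adjusted p = 0.121 and 0.119). Without WT replicate 1, or with all 21 libraries, none was higher, MYH6 included. The count of lower genes was 1 without ISL1 KO replicate 1 or 2 or WT replicate 1. The kit does not mark strand, so reads of NPPA and of its antisense gene cannot be told apart.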

How the data were processed

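RNA of the 5 libraries was amplified with SMART-Seq v4, which does not mark strand, and made into libraries with KAPA EvoPrep, per the labels' protocols. The authors deposited estimated counts per gene, library and lane, and the submitters' processing notes name STAR and GRCh38; no counting program is named there or in the labels. The deposited TPM values, scaled by the authors for transcript length and depth, were not tested. Columns of 3 libraries outside the series (12 columns) were not used.

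Estimated counts were summed over 4 lanes per library, rounded to whole numbers and tested with edgeR 4.0.16 in R 4.3.3: TMM scaling, the filterByExpr filter, 1 mean per group over the 11 control vector libraries, the quasi-likelihood F test and Benjamini-Hochberg adjustment over 21200 genes, with a call at an adjusted p under 0.05. The SE is the log2 fold change over the square root of F. The code was tested on simulated counts. P-values cover the spread between these libraries only, and the depth makes counting error small beside that spread for all but the lowest genes. Symbols and coordinates come from GENCODE release 29 and a gene name table, promoters from RefSeq (GRCh38.p14).

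The members and gene lists were chosen with earlier results of these data known, so a list's count is a description. Named were ISL1, the 12 largest rises and falls among called genes with separate groups whose mean log2 CPM was 2 or more (for transcription factors 1 or more), up to 4 called members of a list in each direction with the smallest adjusted p, genes switched on or off, and members that define a list. HOXB6, HOXB7, AFP, FOS, JUN, COL3A1, the heart list and ID1 to ID3 were added after their values were seen. Alternatives were DESeq2 size factors, library size alone, no filter, 5, 19 or 21 libraries, each library left out, a replicate block, the DESeq2 1.42.0 Wald test and, chosen after seeing the data, a lane set term and a GC offset. A few genes and 1 list are not reported here.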

Additional observations from a re-analysis of the deposited data

How the results depend on the processing

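Counts of called genes depended most on the WT libraries, of which 1 remained when either was left out, and on which libraries entered the fit. When each of the 5 libraries was left out in turn, genes called higher ranged from 1128 to 2429 and genes called lower from 1798 to 2565; with a 2-fold change they ranged from 756 to 1158 and from 1172 to 1323. With all 21 libraries 455 were higher and 994 lower, and 371 and 837 with a 2-fold change. Library size alone called 4590 higher, which made 68.7% of the calls higher against 49.9% with TMM, and the GC offset lowered that share to 42%. DESeq2 size factors, no filter, the 5 libraries alone, 19 libraries, the lane set term and the DESeq2 Wald test (3079 higher, 3463 lower) kept all 4 counts within 1.5 times. Deviations of same-numbered libraries of the 4 genotypes correlated at −0.249 to 0.292. Between ISL1 KO and WT they correlated at 0.0714 for replicate 1 and 0.121 for replicate 3. The deviations of 2 WT libraries mirror each other, so these values cannot settle whether the numbers pair the libraries. With the replicate block 2785 were higher and 2604 lower, and 1252 and 1401 with a 2-fold change. Of 545 named genes none reversed, 369 kept the call with each library left out, 277 with all 21 libraries and 258 in every alternative; the cause of the losses was not tested. Replicate 1 of both WT BFP and ISL1 KO BFP was read on lanes 5 to 8 and their other libraries on lanes 1 to 4. Of 5741 called genes 5739 had 1 sign within both lane sets. The same libraries made the calls, so this was nearly fixed in advance and does not show the part of the lanes. With the lane set term 2547 genes were higher and 2568 lower.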
